A study of Parasteatoda tepidariorum with 12 samples.

Results

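The change in messenger RNA between stage 2 and stage 3 was measured in untreated embryos of Parasteatoda tepidariorum, the common house spider. The 4 libraries of untreated embryos at stage 3 and stage 2 were taken from a series of 12, and every gene model in the count table entered: 27990 models, of which 14498 reached 1 CPM (counts scaled by library size) in at least 1 of the 12 libraries and were tested. Untreated stage 3 embryos were collected 20 h after egg laying and untreated stage 2 embryos 11 h after egg laying. Each stage was represented by eggs of the same 2 adult females, the first called replicate 1 and the second replicate 2. The eggs came from sacs labelled day 0, laid before the females received any injection of double-stranded RNA, and the labels name no transgene or mutation for these groups. The other 8 libraries hold the untreated embryos of early stage 5 (31 h) and the fuchi parental RNA interference (pRNAi) embryos of the same females at the same 3 stages, from sacs labelled day 19 for replicate 1 and day 18 for replicate 2. In pRNAi, mothers receive double-stranded RNA against a gene, which lowers its transcript in eggs they lay later.

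An animal egg is loaded by the mother with transcripts that drive the first cleavages. During the maternal-to-zygotic transition many of these maternal transcripts are cleared, by RNA-binding proteins, deadenylation and small RNAs, while the genome of the embryo begins to be transcribed. In this spider the stage 2 embryo is a blastoderm, and from stage 3 cells gather on one side of the egg to form the germ disc, the primordium of the embryo.

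Each library pooled 50 to 100 whole embryos, and polyadenylated RNA was selected before sequencing. A pool of whole embryos does not tell fewer cells of a type from less RNA per cell, and a change in polyadenylation cannot be told apart from a change in the amount of a transcript. Replicates are eggs of different females, so the tests below measure the spread between 2 females.

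The 4 libraries held 6967313 and 6406894 counts at stage 3 and 8845226 and 6320551 counts at stage 2, within the range of 5662766 to 8857990 over all 12. At least 1 count was found for 16929 and 16494 models at stage 3 and for 15118 and 14946 models at stage 2. A group total of 3 counts, used below as the floor for genes with no count, corresponded in single libraries to 0.411 and 0.484 CPM at stage 3 and to 0.303 and 0.392 CPM at stage 2, and covers counting error only. Replicates correlated with r = 0.962 at stage 3 and 0.970 at stage 2 (log2 CPM, across genes, which are not independent). In the pRNAi embryos the targeted gene fuchi was at 55.4 and 52.1 CPM at stage 3 and at 13.3 and 5.87 CPM at stage 2. In untreated embryos it was at 227 and 229 CPM at stage 3 and at 52.8 and 38.9 CPM at stage 2. Transcripts of adult proteins (hemocyanin, vitellogenin, silk and toxin genes, 29 of 171 members tested) took 0.00416% and 0.00652% of the counts at stage 3 and 0.00234% and 0.00375% at stage 2.

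Transcripts differed between the stages in large numbers, almost evenly in both directions under the scaling used. Levels are relative to the other transcripts of a library, so a change in the total RNA of an embryo is not seen. At stage 3, 2390 of the 14498 tested models (16.5%) were higher and 2230 (15.4%) were lower than at stage 2, together 31.9%, by edgeR's quasi-likelihood test at a Benjamini-Hochberg adjusted p below 0.01 and a change of at least 2-fold. These calls are described as rises and falls in what follows. For every called model both stage 3 libraries lay on the same side of both stage 2 libraries, against 39.4% of all tested models with both stage 3 libraries above and 34.5% with both below. In each female taken alone the change reached 2-fold for 2096 of the rises and 2022 of the falls. Without stage 3 replicate 2 the falls dropped to 1309, and without stage 2 replicate 1 the rises dropped to 1562. Rises were 51.7% of the calls on counts, and 36.0% of the calls (1675 rises, 2979 falls) when the deposited RPKM values were tested with limma on log2(RPKM + 1). As the calls imply, the median CPM of the rises was 47.0 at stage 3, against 6.68 at stage 2, and that of the falls was 12.1 at stage 3, against 56.9 at stage 2.

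**Figure D1:**
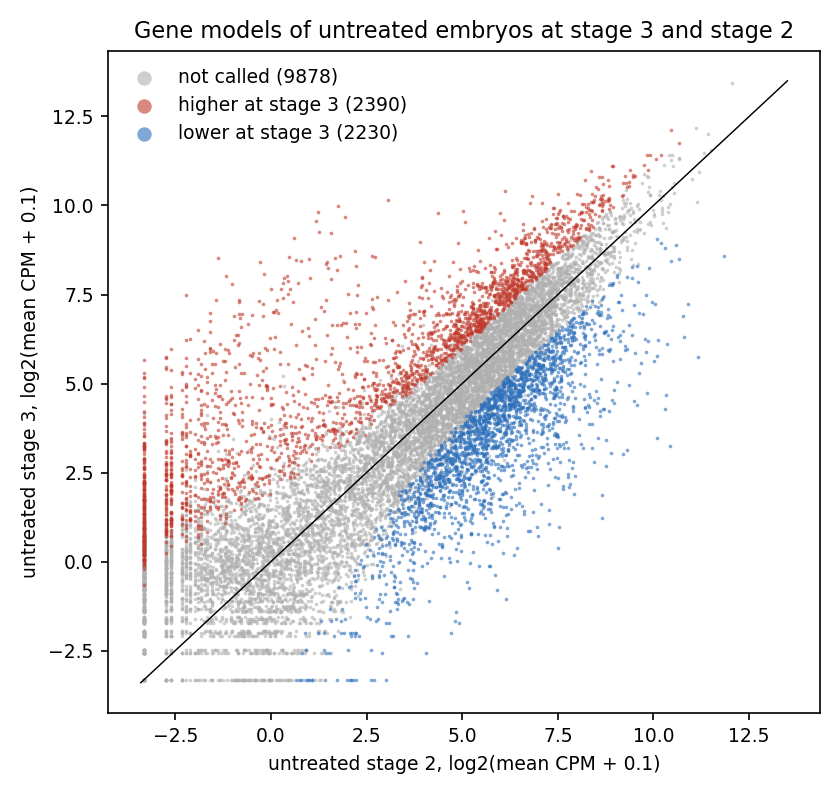
Mean level of each of the 14498 tested gene models in untreated embryos at stage 3 (vertical axis) and stage 2 (horizontal axis), both as log2 of the mean CPM of 2 libraries plus 0.1, with the line of equal levels. The 2390 models called higher at stage 3 include a column at the left edge with no count at stage 2, and the 2230 models called lower lie under the line.

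The largest rises exceeded the largest falls in size. With genes at 0 counts set to their bound, 1420 rises reached 4-fold, 673 reached 16-fold and 249 reached 64-fold. Of the falls, 1244 reached 4-fold, 250 reached 16-fold and 28 reached 64-fold. The median log2 change was 2.45 for the rises, with those bounds, and -2.13 for the falls. At stage 2, 247 of the rises had no count in either library, and 861 averaged under 1 CPM. At stage 3, 18 of the falls had no count in either library, and 146 averaged under 1 CPM. Most falling transcripts were thus still measured at stage 3, at a lower level.

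The called models held a changing share of the library. Rises took 39.0% and 39.3% of all counts at stage 3, against 13.3% and 13.0% at stage 2. Falls took 5.92% and 4.77% of the counts at stage 3, against 28.3% and 28.2% at stage 2. The models that were not called took 55.0% and 55.8% at stage 3 and 58.4% and 58.7% at stage 2. These shares follow from the calls and carry no test. The early stage 5 libraries were not compared in the calls between stage 2 and stage 3, but they entered the filter, scaling and shared spread. There the rises held 58.8% and 55.3% of the counts and the falls 4.96% and 5.40%. The falls had a median of 56.6 and 56.0 CPM in the stage 2 libraries, of 12.9 and 10.8 CPM in the stage 3 libraries and of 12.6 and 12.8 CPM in those of early stage 5, where it was thus near its stage 3 value. The rises had a median of 6.86 and 6.85 CPM in the stage 2 libraries, of 45.4 and 47.7 CPM in the stage 3 libraries and of 53.3 and 50.6 CPM in those of early stage 5.

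**Figure D2:**
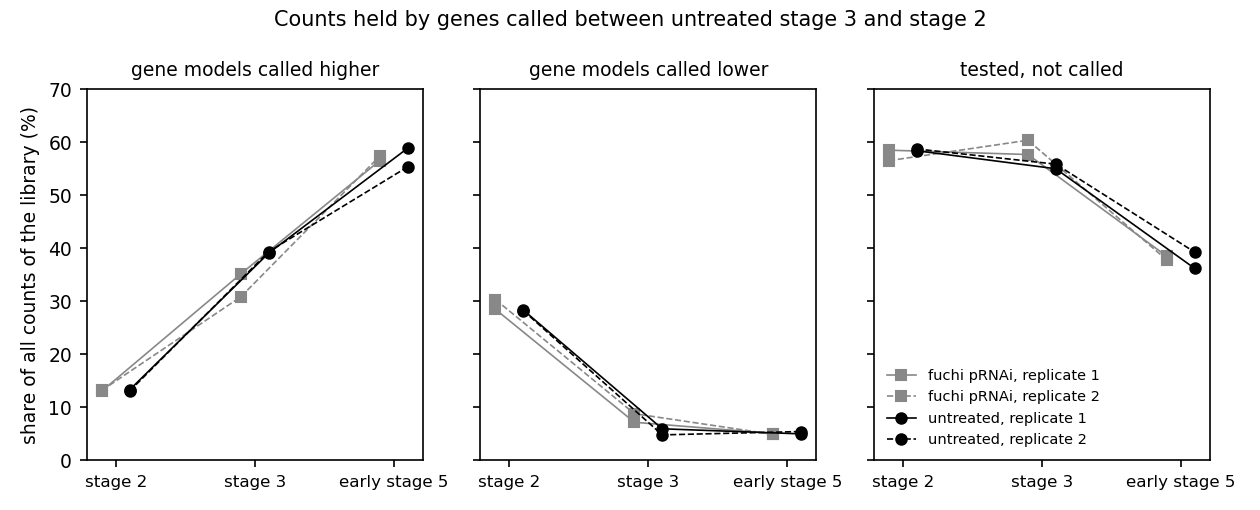
Share of all counts of each library (%) held by the models called higher, called lower or not called between untreated stage 3 and stage 2, drawn for the 3 stages in order of age. Each marker is 1 library (squares, fuchi pRNAi; circles, untreated; solid lines, replicate 1; dashed lines, replicate 2), and the falling models drop to between 4.77% and 8.76% at stage 3 in all 4 stage 3 libraries.

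The rising transcripts with the smallest p included components of Notch and Wnt signalling beside cytoskeletal and membrane genes. The strongest evidence among models with a description belonged to g1840, similar to pleckstrin homology domain-containing family O member 1-A (scaffold 348, bases 426595 to 493947 of Ptep_1.0, plus strand). It was at 586 and 625 CPM at stage 3, against 2.22 and 3.52 CPM at stage 2. This is a log2 change of 7.73 (SE 0.33, edgeR adjusted p = 5.7e-08, n = 2 libraries a stage). The Notch receptor model g21218 was at 345 and 410 CPM at stage 3, against 6.56 and 6.40 CPM at stage 2, a log2 change of 5.86 (SE 0.31, edgeR adjusted p = 1.4e-07). The Wnt receptor model g4009, similar to frizzled-5, was at 118 and 130 CPM at stage 3, against 0.403 and 0.522 CPM at stage 2, a log2 change of 8.03 (SE 0.44). In each of these genes both females had similar levels at stage 3 and the stages lay far apart, which a choice by smallest p favours. Of models that are similar to lifeguard proteins, which lie in membranes and counter cell death in other animals, g15222 stood at 569 and 512 CPM at stage 3, against 1.82 and 1.04 CPM at stage 2 (log2 change 8.52, SE 0.43). The Golgi tether model g4847, golgin subfamily A member 5, was at 134 and 152 CPM at stage 3, against 2.02 and 2.74 CPM at stage 2 (log2 change 5.91, SE 0.31).

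Some of the steepest rises have no name. The model g17646 (scaffold 2610, bases 289676 to 291126, plus strand) is paired with no NCBI gene in the deposited annotation, and had the smallest p of all rises. It was at 429 and 306 CPM at stage 3, against 0.303 and 0.261 CPM at stage 2, a log2 change of 10.25 (SE 0.41, edgeR adjusted p = 4.6e-08). The model g13888, also without an NCBI gene, was at 126 and 123 CPM at stage 3, against 0.605 and 0.392 CPM at stage 2 (log2 change 7.89). Of the 673 rises of 16-fold or more, 39.7% had a description other than uncharacterized, 36.4% matched an uncharacterized gene and 23.9% had no NCBI gene. Among all tested models 72.4% had a description and 9.78% had no NCBI gene.

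Among the rises with no count at stage 2, those with the highest stage 3 level were mostly undescribed. The model g14309 (scaffold 1845, bases 37124 to 57854, minus strand) had 504 and 204 counts at stage 3, against 0 and 0 counts at stage 2, so it was at least 307-fold higher, taking 3 counts over the stage 2 pair as the floor. The single-exon-like model g26981 had 264 and 265 counts at stage 3, against 0 and 0 at stage 2. The uncharacterized model g12453, which overlaps other models, had 275 and 217 counts at stage 3, against 0 and 0 at stage 2, at least 213-fold higher. These transcripts were not detected at 11 h and had over 200 counts at 20 h in the eggs of both females.

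The falling transcripts with the smallest p included those of enzymes and transporters. The model g10379, similar to stearoyl-CoA desaturase 5, an enzyme that introduces double bonds into fatty acids, fell to 4.65 and 2.42 CPM at stage 3, against 436 and 374 CPM at stage 2. Its log2 change was -6.81 (SE 0.36, edgeR adjusted p = 1.4e-07). The proclotting enzyme model g15441, a serine protease, was at 8.49 and 7.91 CPM at stage 3, against 471 and 480 CPM at stage 2 (log2 change -5.85, SE 0.34). Fatty acyl-CoA reductase g21224 was at 3.42 and 3.87 CPM at stage 3, against 222 and 267 CPM at stage 2 (log2 change -6.06, SE 0.36). In these genes the 2 females differed less than the stages, which a choice by smallest p favours. Pyruvate kinase g7636, which catalyses the last step of glycolysis, fell less far, to 25.1 and 18.2 CPM at stage 3, against 396 and 339 CPM at stage 2 (log2 change -4.08, SE 0.26). The model g12565, described as E3 SUMO-protein ligase EGR2, was at 7.26 and 5.32 CPM at stage 3, against 508 and 358 CPM at stage 2 (log2 change -6.10, SE 0.38). A pair of models described as putative sodium-coupled neutral amino acid transporter 7 was also among them. The model g18058 was at 1.51 and 1.94 CPM at stage 3, against 116 and 101 CPM at stage 2, and g8128 at 5.48 and 4.68 CPM at stage 3, against 196 and 148 CPM at stage 2.

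**Figure D3:**
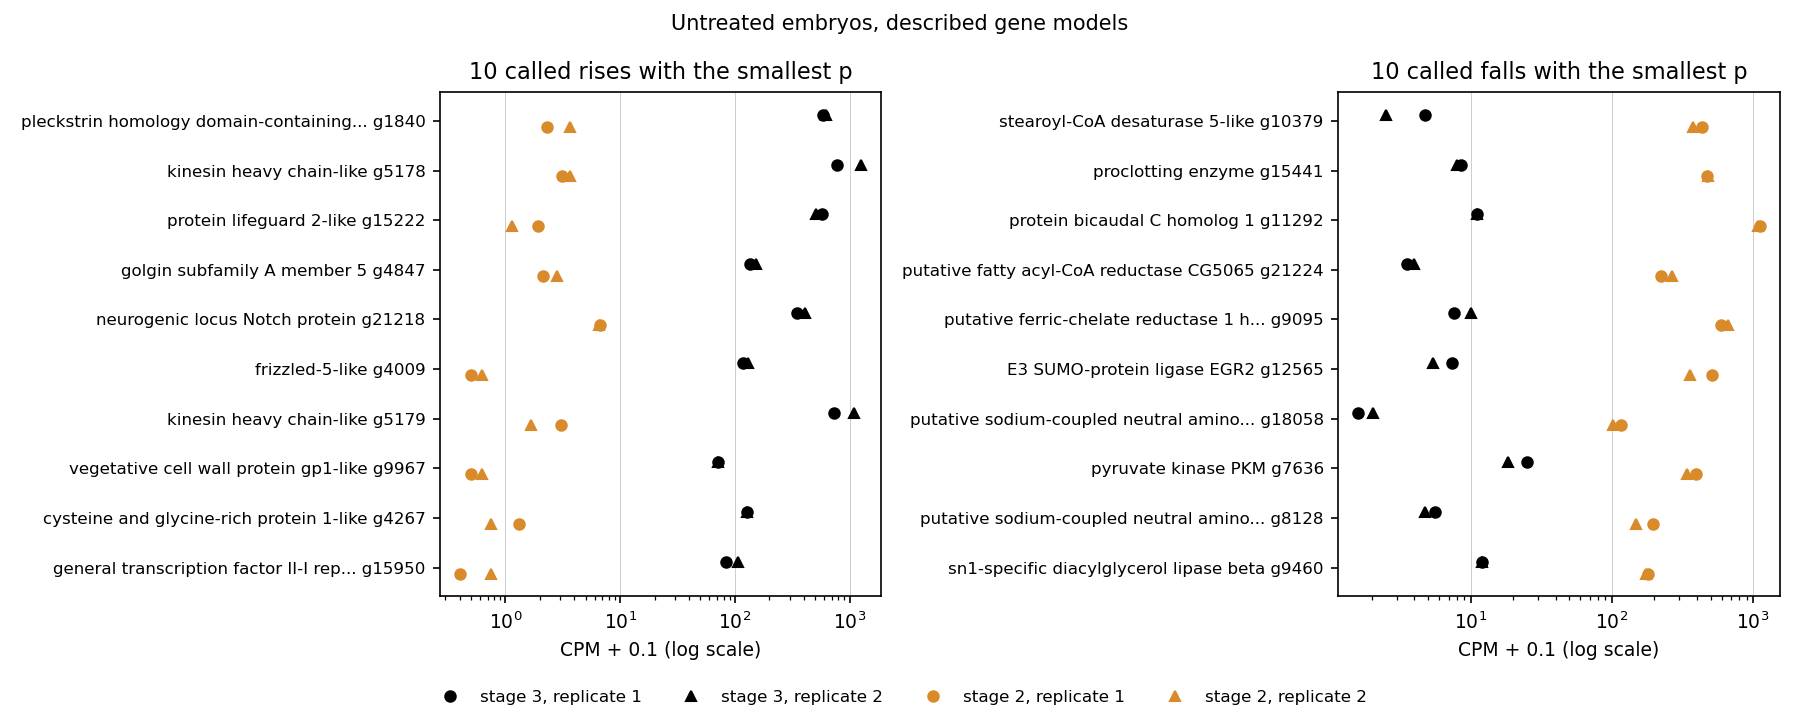
Levels of the 10 rises and the 10 falls with the smallest p among described models, as CPM plus 0.1 on a log axis; each marker is 1 library (black, stage 3; orange, stage 2; circle, replicate 1; triangle, replicate 2). The models were picked for stages that do not overlap and for small p, so the gap between the stages follows from that choice. An example is g11292, at 11.0 and 11.0 CPM at stage 3 and at 1114 and 1076 CPM at stage 2.

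Some transcripts abundant at stage 2 were close to undetected at stage 3. The uncharacterized model g20246 had 1 and 1 counts at stage 3, against 266 and 193 counts at stage 2, a ratio of 176 (exact 95% interval 48.5 to 1460) after scaling for depth. The model g25171, similar to chondroitin sulfate N-acetylgalactosaminyltransferase 2, had 3 and 0 counts at stage 3, against 318 and 213 at stage 2, a ratio of 136 (46.3 to 662). The glycosyltransferase model g5408, beta-1,4-glucuronyltransferase 1, had 2 and 3 counts at stage 3, against 926 and 376 at stage 2. The intervals cover counting error only.

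Regulators of maternal RNA in the egg changed in both directions, in shares not far from those of all tested models. Of 64 tested members of a list of RNA control and germline genes (72 members), 13 rose (20.3%) and 11 fell (17.2%). The shares over all tested models were 16.5% and 15.4%. The median log2 change of the list was -0.05, against 0.10 over all tested models. Without stage 3 replicate 2 the falls dropped to 7. The largest fall was that of g11292 (scaffold 1291, bases 106536 to 136504, plus strand), similar to Bicaudal C, an RNA-binding protein that controls deadenylation and translation of maternal transcripts in Drosophila. It was at 11.0 and 11.0 CPM at stage 3, against 1114 and 1076 CPM at stage 2, a log2 change of -6.64 (SE 0.39, edgeR adjusted p = 1.7e-07). The model g12413, similar to cytoplasmic polyadenylation element-binding protein 1-B, of a family that regulates stored transcripts in eggs, was at 74.3 and 74.9 CPM at stage 3, against 1122 and 1100 CPM at stage 2 (log2 change -3.90, SE 0.25). Subunit 4 of the CCR4-NOT deadenylase complex, g18261, was at 23.1 and 25.5 CPM at stage 3, against 367 and 285 CPM at stage 2 (log2 change -3.75, SE 0.26). These transcripts were all plentiful at stage 2 and fell in the eggs of both females. The scaffold subunit of the same complex was different: g23958, subunit 1, was at 472 and 553 CPM at stage 3 and at 664 and 598 CPM at stage 2, and was not called (log2 change -0.30, SE 0.28, edgeR adjusted p = 0.40).

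Several germline and RNA control transcripts are named here after their values were seen. The germ cell translation regulator DAZL, g7580, was at 67.3 and 41.0 CPM at stage 3, against 1135 and 1034 CPM at stage 2 (log2 change -4.32, SE 0.36). The model of piwi-like protein 1, g11104, whose relatives bind the small RNAs that silence transposons, was at 1419 and 2632 CPM at stage 3, against 695 and 639 CPM at stage 2, a rise of 1.60 on the log2 scale (SE 0.27, edgeR adjusted p = 0.00041). The model of polyadenylate-binding protein 4, g27712, rose to 1563 and 1595 CPM at stage 3, against 623 and 625 CPM at stage 2 (log2 change 1.34, SE 0.23). Among the rises that the naming rule selected, polyadenylate-binding protein 2-B, g5890, which binds poly(A) in the nucleus, was at 277 and 318 CPM at stage 3, against 65.1 and 50.4 CPM at stage 2 (log2 change 2.36, SE 0.32). The model g5231, similar to pumilio homolog 3, was at 198 and 319 CPM at stage 3, against 70.8 and 55.5 CPM at stage 2 (log2 change 2.03, SE 0.27). Transcripts for different RNA-binding proteins of the list thus moved in opposite directions between the same stages, as did the tested models at large.

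Genes that pattern the germ disc differed in their level at stage 2 and in their change. Of 11 patterning genes known in this spider or similar to such genes, 5 rose (45.5%) and 1 fell (9.09%). Over all tested models, 16.5% rose and 15.4% fell. With the female as a block in the fit 8 of the list rose and 1 fell, beside 19.7% and 18.1% of all tested models. The genes of the list were chosen by the study or in view of these libraries, so the count is not independent evidence of a direction. The signalling ligand gene Pt-hh (hedgehog, g4322; scaffold 547, bases 237576 to 301138, plus strand), which acts in anterior patterning of the spider embryo, was at 74.1 and 82.3 CPM at stage 3, against 1.51 and 0.261 CPM at stage 2. This is a log2 change of 6.35 (SE 0.46, edgeR adjusted p = 6.4e-07). Of the receptor family for this ligand, the patched-like model g14374 was at 211 and 204 CPM at stage 3, against 16.7 and 13.2 CPM at stage 2 (log2 change 3.79, SE 0.37; named after its values were seen). The transducer smoothened, g8490, was at 262 and 181 CPM at stage 3 and at 176 and 170 CPM at stage 2, and was not called (log2 change 0.36, SE 0.23).

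The Notch ligand gene Pt-Delta, g25248, was at 170 and 175 CPM at stage 3, against 7.06 and 6.40 CPM at stage 2, a log2 change of 4.68 (SE 0.40, edgeR adjusted p = 2.3e-06). A second Delta-like model, g12734, went the other way, at 26.7 and 12.1 CPM at stage 3, against 130 and 112 CPM at stage 2 (log2 change -2.63, SE 0.38). Together with the Notch model g21218, a receptor and a ligand of this pathway rose between the stages while another ligand model fell. Pt-sog (g23966), a gene for a secreted antagonist of bone morphogenetic protein (BMP) signals, was at 7.39 and 18.9 CPM at stage 3, against 0.403 and 0 CPM at stage 2 (log2 change 5.76, SE 0.84, edgeR adjusted p = 0.00013). Leaving out 1 library moved the log2 change of g23966 between 4.94 and 9.54, and limma on log2(RPKM + 1) over all genes above 0 did not call it (adjusted p = 0.026). Its level at early stage 5 was higher again, at 118 and 91.7 CPM.

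Transcription factor genes of the list gave mixed results. Pt-Ets4 (g4238), which is expressed in the cumulus, the cell group that breaks radial symmetry, was at 111 and 99.1 CPM at stage 3, against 6.35 and 0.783 CPM at stage 2 (log2 change 4.82, SE 0.64, edgeR adjusted p = 6.7e-05). Pt-twi (g14287), a basic helix-loop-helix gene related to the mesoderm gene twist of Drosophila, was at 19.4 and 23.4 CPM at stage 3, against 0.908 and 0.914 CPM at stage 2 (log2 change 4.53, SE 0.60). At early stage 5, Pt-twi was at 4.72 and 1.32 CPM, below its stage 3 libraries, and Pt-Ets4 was at 68.9 and 71.9 CPM. Both factors stood lower at 31 h than at 20 h in these libraries, a difference that was not tested. The homeobox model g4533, similar to MSX-2, was the fall of the list, at 0.958 and 1.94 CPM at stage 3, against 6.66 and 12.7 CPM at stage 2 (log2 change -2.73, SE 0.59, edgeR adjusted p = 0.0021). This call was lost without stage 3 replicate 1 and without stage 2 replicate 2 (adjusted p up to 0.027).

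For 3 patterning genes the call depended on the setting, including whether the female was in the model. Without a block, the likelihood ratio test and DESeq2 also called Pt-otd and Pt-lab1, and the fit with no filter called all 3. Pt-otd (g9172), the orthodenticle homolog of head patterning, was at 10.7 and 2.10 CPM at stage 3, against 0.303 and 0.131 CPM at stage 2 (log2 change 4.74, SE 1.32, edgeR adjusted p = 0.010 without the block and 5.6e-05 with it). The forkhead gene Pt-fkh (g6985) was at 25.3 and 36.1 CPM at stage 3 and at 3.63 and 13.3 CPM at stage 2 (edgeR adjusted p = 0.045 without the block and 0.0043 with it). The Hox gene Pt-lab1 (g7954) was at 220 and 212 CPM at stage 3 and at 36.1 and 82.2 CPM at stage 2 (edgeR adjusted p = 0.014 without the block and 0.0034 with it). In all 3 genes the stages did not overlap, and the females differed by more than 2-fold at one stage or both. Pt-BarH1 (g8250) was at 113 and 60.5 CPM at stage 3 and at 144 and 122 CPM at stage 2, and Pt-prd2 (g18397) stayed at or under 1.82 CPM in all 4 libraries. Neither was called, but Pt-BarH1 was a fall without stage 3 replicate 1.

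GATA factor genes, the family to which fuchi belongs, differed among themselves in their change. All 8 members were tested, of which 3 rose (37.5%) and 1 fell (12.5%), against 16.5% and 15.4% over all tested models. The fuchi gene itself (g26874; scaffold 177, bases 310446 to 328722, plus strand) rose by 2.31 on the log2 scale (SE 0.31, edgeR adjusted p = 7.9e-05), and its transcript was already present at stage 2. Pt-GATA5 (g8337) was at 14.8 and 15.0 CPM at stage 3, against 0.303 and 0.131 CPM at stage 2 (log2 change 5.95, SE 1.05, edgeR adjusted p = 0.00055). Pt-GATA1 (g20514) fell to 10.8 and 3.55 CPM at stage 3, against 112 and 55.9 CPM at stage 2 (log2 change -3.53, SE 0.65, edgeR adjusted p = 0.00070), a call that was lost without stage 3 replicate 2. Pt-GATAL1 (g26871) had 6 and 11 counts at stage 3, against 0 and 0 at stage 2, at least 7.38-fold higher, and its call was lost whenever 1 of the 4 libraries was left out (edgeR adjusted p up to 0.044). The remaining members, Pt-GATA2, Pt-GATA3, Pt-GATA4 and Pt-GATAL2b, had between 0 and 30 counts in each library and were not called. The GATA family therefore held a gene with its highest level at stage 2, Pt-GATA1, beside genes that were higher at stage 3. The gene catA for catenin alpha, which links cadherins to actin, fell to 132 and 131 CPM at stage 3, against 316 and 427 CPM at stage 2 (log2 change -1.50, SE 0.25).

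**Figure D4:**
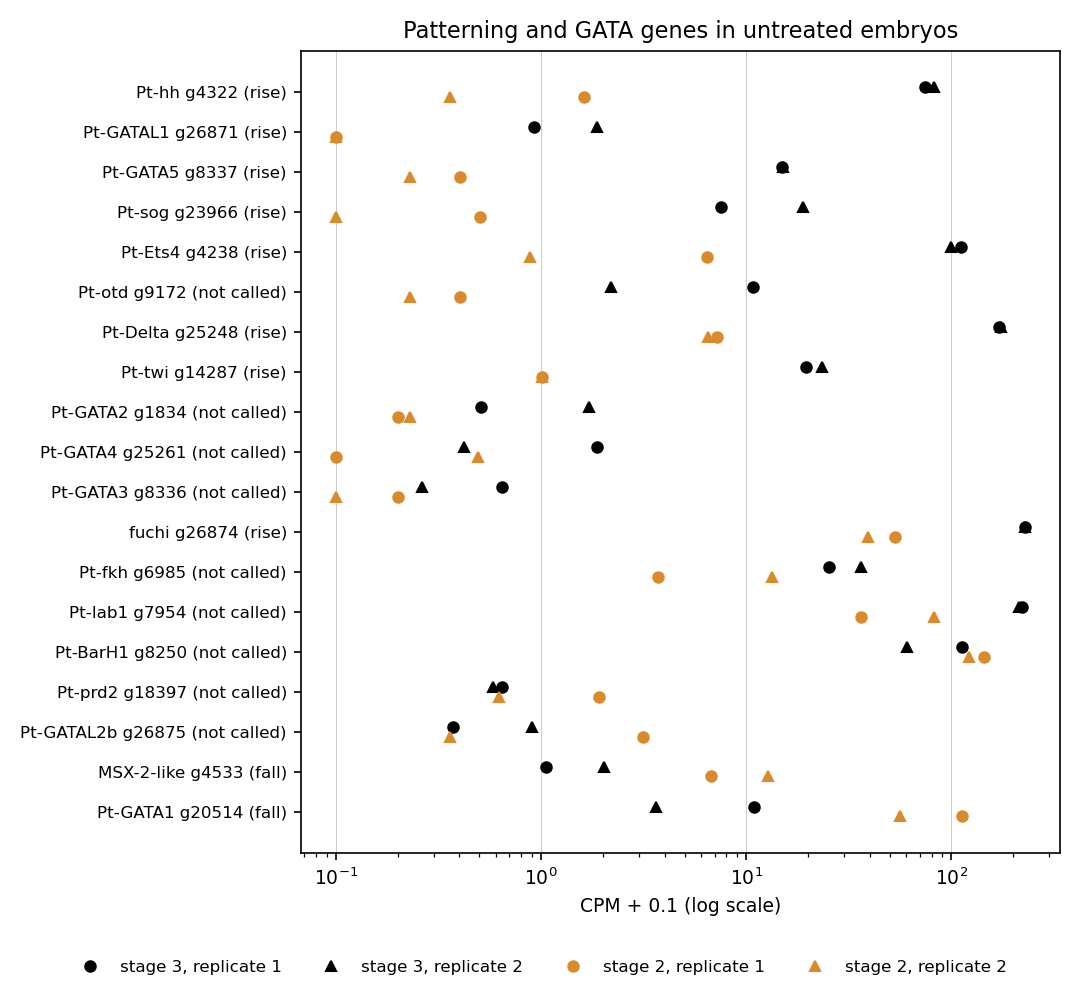
Levels of the patterning and GATA genes in the 4 untreated libraries, as CPM plus 0.1 on a log axis, ordered by log2 change (black, stage 3; orange, stage 2; circle, replicate 1; triangle, replicate 2; the call is given in each label). Pt-hh, Pt-GATA5 and Pt-twi show both stage 3 libraries far above both stage 2 libraries, Pt-GATA1 shows the reverse, and Pt-BarH1 and Pt-prd2 show libraries that lie close together.

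Over the wider set of signalling genes, 20 of 87 tested ligands and receptors rose (23.0%) and 12 fell (13.8%), against 16.5% and 15.4% over all tested models (143 members), with a median log2 change of 0.60, or 0.30 with genes at 0 counts set to their bound. Leaving out 1 library gave 10 to 15 rises, the fewest without stage 2 replicate 1, and 4 falls without stage 3 replicate 2. The Wnt-16-like model g11009 was at 30.1 and 63.2 CPM at stage 3, against 1.21 and 1.31 CPM at stage 2 (log2 change 5.20, SE 0.47; named after its values were seen). The BMP 2-A-like model g15032, a ligand of the pathway that Sog antagonizes, had 18 and 33 counts at stage 3, against 0 and 0 at stage 2, at least 22.1-fold higher (also named after its values were seen). The most abundant falling member was the fibroblast growth factor receptor 3-like model g26271, at 58.7 and 99.2 CPM at stage 3, against 1921 and 1608 CPM at stage 2 (log2 change -4.48, SE 0.62, edgeR adjusted p = 9.3e-05). Smad3, g7593, an intracellular transducer of the transforming growth factor beta pathway, fell to 19.7 and 14.5 CPM at stage 3, against 59.5 and 50.1 CPM at stage 2 (log2 change -1.68, SE 0.27), and its model overlaps another. Signalling transcripts thus took 0.313% and 0.293% of the counts at stage 3, against 0.612% and 0.582% at stage 2, and this sum includes the receptor g26271.

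Transcription factor genes of each family listed included rises and falls. Of 84 tested homeobox and paired box genes (150 members), 13 rose (15.5%) and 2 fell (2.38%), against 16.5% and 15.4% over all tested models. With the block 20 rose and 5 fell, beside 19.7% and 18.1% of all tested models. Leaving out 1 library lowered the rises to 4 without stage 2 replicate 1 and to 7 without stage 3 replicate 1 or stage 2 replicate 2, and the falls to 0 without stage 2 replicate 2. The orthopedia-like model g16467 had 54 and 43 counts at stage 3, against 0 and 0 at stage 2, at least 42.1-fold higher. The Meis2 model g13867, a cofactor of Hox proteins, was at 72.0 and 56.5 CPM at stage 3, against 2.12 and 6.14 CPM at stage 2 (log2 change 3.99, SE 0.61), and the engrailed-like model g15243 at 10.8 and 4.36 CPM at stage 3, against 0.403 and 0.392 CPM at stage 2 (log2 change 4.21, SE 0.56). Of 47 tested forkhead, SOX, T-box, basic helix-loop-helix and nuclear receptor genes (76 members), 13 rose and 8 fell. These are 27.7% and 17.0%, against 16.5% and 15.4% over all tested models. Leaving out stage 2 replicate 1 or stage 2 replicate 2 gave 6 rises each, leaving out stage 3 replicate 2 gave 7, and leaving out stage 3 replicate 1 gave 5 falls. The snail homolog g417, of a family that drives mesoderm formation in Drosophila, had 45 and 84 counts at stage 3, against 1 and 0 at stage 2, a ratio of 168 (exact 95% interval 29.6 to 6683). The achaete-scute homolog g27206, a proneural gene type, was at 69.4 and 88.6 CPM at stage 3, against 4.44 and 3.26 CPM at stage 2 (log2 change 4.34, SE 0.47). The HES-7.1-like model g20968, of a family of repressors downstream of Notch in vertebrates, moved the other way, at 7.39 and 6.29 CPM at stage 3, against 262 and 213 CPM at stage 2 (log2 change -5.11, SE 0.49). Among 277 tested zinc finger genes (311 members), 42 rose and 38 fell, shares close to those of all tested models. Without stage 3 replicate 2 the zinc finger falls numbered 17, and without stage 2 replicate 2 they numbered 24. The ZIC 4-like model g12202, of a family of neural and mesodermal regulators in other animals, was at 503 and 716 CPM at stage 3, against 2.52 and 2.09 CPM at stage 2 (log2 change 8.03, SE 0.46).

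Most transcripts for cytosolic ribosomal proteins rose. Of 79 tested cytosolic ribosomal protein genes (80 members), 74 rose and 0 fell, with a median log2 change of 2.41, against a rise share of 16.5% and a median of 0.10 over all tested models. Both stage 3 libraries lay above both stage 2 libraries for 76 of them, against 39.4% of all tested models. Every alternative setting gave between 69 and 75 rises. Together they took 5.08% and 4.38% of the counts at stage 3, against 1.12% and 1.02% at stage 2. The L23 gene g15252 (scaffold 36, bases 2307100 to 2314640, minus strand) was at 523 and 480 CPM at stage 3, against 18.2 and 11.6 CPM at stage 2, a log2 change of 5.07 (SE 0.34, edgeR adjusted p = 4.2e-07). The L9-like gene g7878 was at 792 and 690 CPM at stage 3, against 25.7 and 40.9 CPM at stage 2 (log2 change 4.48, SE 0.32). The S16 gene g6035, of the small subunit, was at 516 and 578 CPM at stage 3, against 58.3 and 46.0 CPM at stage 2 (log2 change 3.39, SE 0.24). The exception with enough counts to measure was the S11-like model g1351, at 35.9 and 25.5 CPM at stage 3 and at 54.3 and 43.7 CPM at stage 2 (log2 change -0.67, SE 0.30, edgeR adjusted p = 0.081), with no call. The other 4 members without a call, models of L26, L27, L30 and L35, had low counts, as for L35 (g24858) with 4 and 1 counts at stage 3 and 0 and 0 at stage 2.

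Other parts of gene expression followed in smaller measure. Of 82 tested mRNA splicing genes, 56 rose (68.3%) and 1 fell (1.22%), against 16.5% and 15.4% over all tested models. The median log2 change of the list was 1.38. Both stage 3 libraries lay above both stage 2 libraries for 72 of the 82, against 39.4% of all tested models. The rises numbered 38 to 45 when 1 library was left out. They took 2.09% and 2.00% of the counts at stage 3, against 0.955% and 0.850% at stage 2. The spliceosomal model g17870, splicing factor 3B subunit 2, was at 58.3 and 33.2 CPM at stage 3, against 1.82 and 1.70 CPM at stage 2 (log2 change 4.69, SE 0.50), and g15380, serine/arginine-rich splicing factor 2, at 795 and 886 CPM at stage 3, against 228 and 193 CPM at stage 2 (log2 change 2.00, SE 0.21). The fall of the list, splicing factor 3A subunit 1 (g15383), was at 156 and 135 CPM at stage 3, against 425 and 288 CPM at stage 2, and was lost without stage 3 replicate 2 and without stage 2 replicate 1.

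Of 122 tested translation factor and tRNA ligase genes, 45 rose (36.9%) and 8 fell (6.56%), against 16.5% and 15.4% over all tested models. The median log2 change of the list was 0.83. Leaving out stage 3 replicate 2 gave 27 rises and leaving out stage 2 replicate 2 gave 25, and the falls numbered 1 to 4 with any library left out. The initiation factor eIF5A-1 (g18447) was at 1422 and 1705 CPM at stage 3, against 393 and 433 CPM at stage 2 (log2 change 1.92, SE 0.22), and eIF3 subunit A (g7673) at 735 and 828 CPM at stage 3, against 177 and 115 CPM at stage 2 (log2 change 2.42, SE 0.26). The eIF4E transporter g18867, which binds the cap-binding protein and represses stored transcripts, fell to 120 and 134 CPM at stage 3, against 851 and 736 CPM at stage 2 (log2 change -2.64, SE 0.21, edgeR adjusted p = 1.4e-06). Of these 3 genes, the initiation factors rose and the translation repressor fell.

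The proteasome, the protease that degrades tagged proteins, had 20 rises (47.6%) and 1 fall (2.38%) among 42 tested members. The shares over all tested models were 16.5% and 15.4%, and the median log2 change of the list was 1.00. Its rises numbered 11 without stage 3 replicate 2, 13 without stage 2 replicate 1 and 10 without stage 2 replicate 2. For 32 members both stage 3 libraries lay above both stage 2 libraries, against 39.4% of all tested models. Subunit SEM1 (g3422) was at 243 and 186 CPM at stage 3, against 56.3 and 54.0 CPM at stage 2 (log2 change 1.96, SE 0.25). The fall, g15326, is described as non-ATPase regulatory subunit 9, which is known as an assembly chaperone in other animals, and was at 20.4 and 19.7 CPM at stage 3, against 65.5 and 65.1 CPM at stage 2 (log2 change -1.70, SE 0.24).

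Of 76 tested respiratory chain and ATP synthase genes, 20 rose (26.3%) and 2 fell (2.63%), against 16.5% and 15.4% over all tested models. The median log2 change of the list was 0.82. Both stage 3 libraries lay above both stage 2 libraries for 55 of the 76, against 39.4% of all tested models. Leaving out stage 3 replicate 1 gave 10 rises, and leaving out either stage 2 library gave 9, with 1 or 2 falls. ATP synthase subunit b (g4588) was at 185 and 214 CPM at stage 3, against 44.3 and 62.8 CPM at stage 2 (log2 change 1.90, SE 0.24). The summed counts of the list were set in part by g20563, similar to cytochrome c oxidase subunit 3, which differed more between the females than between the stages, at 4483 and 17577 CPM at stage 3 and at 1158 and 7272 CPM at stage 2 (edgeR adjusted p = 0.47). Without this gene the list took 1.01% and 0.821% of the counts at stage 3, against 0.514% and 0.556% at stage 2. Mitochondrial ribosomal protein genes had 14 rises and 1 fall among 70 tested members, a rise share of 20.0%. Without stage 2 replicate 1 there were 9 rises, and the fall was kept only when stage 2 replicate 2 was left out.

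**Figure D5:**
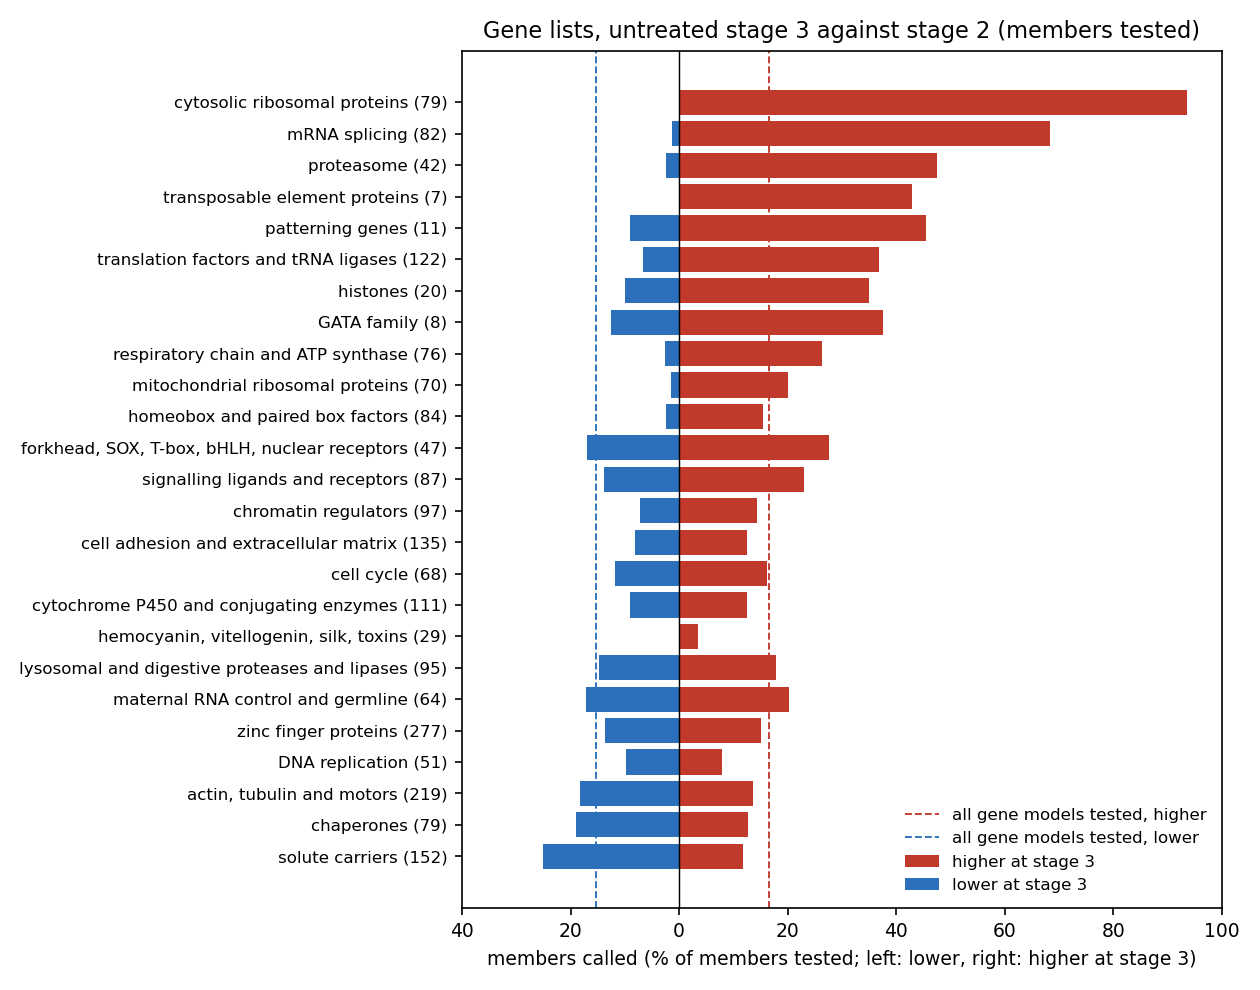
Share of the tested members of each gene list called higher (right, red) or lower (left, blue) at stage 3 than at stage 2, with the number tested in brackets and the shares over all tested models (16.5% and 15.4%) as dashed lines. Cytosolic ribosomal proteins (74 of 79) and mRNA splicing (56 of 82) reach farthest to the right, and solute carriers (38 of 152) reach farthest to the left.

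Genes of the cell cycle had shares of calls near or under those of all tested models. Of 68 tested members 11 rose (16.2%) and 8 fell (11.8%), against 16.5% and 15.4% over all tested models. Leaving out 1 library gave 6 to 9 rises. The mitotic cyclins were abundant at both stages and were not called. Cyclin B (g8469) was at 1187 and 1322 CPM at stage 3 and at 1073 and 1195 CPM at stage 2 (log2 change 0.15, SE 0.24). Cyclin B3 (g14278) was at 556 and 499 CPM at stage 3 and at 552 and 597 CPM at stage 2, and cyclin A1 (g2080) at 419 and 821 CPM at stage 3 and at 669 and 763 CPM at stage 2; these last 2 were named after their values were seen. By contrast, the transcription elongation kinase Cdk9 (g4670) rose to 99.1 and 116 CPM at stage 3, against 34.2 and 18.3 CPM at stage 2 (log2 change 2.03, SE 0.30), and its partner cyclin-T2 (g1061) to 140 and 206 CPM at stage 3, against 54.4 and 47.0 CPM at stage 2 (log2 change 1.77, SE 0.25). The alternative partner cyclin-T1 (g18699) fell to 1.51 and 1.13 CPM at stage 3, against 19.1 and 25.2 CPM at stage 2 (log2 change -4.04, SE 0.51). Cyclin-dependent kinase 4 (g11377), a kinase of the G1 phase, was at 25.2 and 20.5 CPM at stage 3, against 102 and 112 CPM at stage 2 (log2 change -2.22, SE 0.30). DNA replication genes had 4 rises (7.84%) and 5 falls (9.80%) among 51 tested members, and 7 rises with the block. Their rises numbered 2 without stage 3 replicate 2 or stage 2 replicate 1 and 1 without stage 2 replicate 2.

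Histone and chromatin genes included some of the more abundant risers. Of 20 tested histone genes 7 rose (35%) and 2 fell (10%), against 16.5% and 15.4% over all tested models. With the block 9 rose and 4 fell, beside 19.7% and 18.1% of all tested models. Without stage 3 replicate 1 the histone rises numbered 3. Histone transcripts are often not polyadenylated, and only polyadenylated RNA was selected. Histone H2A (g7601) was at 1381 and 1174 CPM at stage 3, against 335 and 342 CPM at stage 2 (log2 change 1.92, SE 0.24), and the linker histone model g12662, H1B-like, at 196 and 183 CPM at stage 3, against 21.9 and 26.5 CPM at stage 2 (log2 change 2.97, SE 0.37). Histone genes have near-identical copies, so reads may be split among them. Both falling histone models were lost without stage 3 replicate 2. Of 97 tested chromatin regulators 14 rose (14.4%) and 7 fell (7.22%), both under the shares over all tested models. The falls numbered 3 or 4 with any library left out and the rises 9 without stage 2 replicate 2. Chromobox protein 2 (g5646), of the Polycomb group that maintains gene repression, was at 1007 and 749 CPM at stage 3, against 24.7 and 16.4 CPM at stage 2 (log2 change 5.41, SE 0.34, edgeR adjusted p = 2.6e-07). The nucleosome remodeller Mi-2 (g7368) was at 272 and 170 CPM at stage 3, against 40.8 and 43.1 CPM at stage 2 (log2 change 2.40, SE 0.29), and another Polycomb model, Scm (g23784), fell to 9.72 and 6.45 CPM at stage 3, against 35.5 and 36.9 CPM at stage 2 (log2 change -2.16, SE 0.31).

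Solute carriers, which move small molecules across membranes, held more falls than rises. Of 152 tested solute carriers, 38 fell (25.0%) and 18 rose (11.8%), against 15.4% and 16.5% over all tested models. The falls numbered 23 without stage 3 replicate 2, and the rises 8 to 11 with any library left out. Solute carriers took 0.327% and 0.333% of the counts at stage 3, against 0.779% and 0.732% at stage 2. The facilitated glucose transporter g25893 was at 18.5 and 20.3 CPM at stage 3, against 426 and 416 CPM at stage 2 (log2 change -4.44, SE 0.31), and the proline transporter g14950 at 3.42 and 2.42 CPM at stage 3, against 103 and 67.6 CPM at stage 2 (log2 change -4.86, SE 0.33). A monocarboxylate transporter 12-like model, g9963, rose to 661 and 936 CPM at stage 3, against 167 and 192 CPM at stage 2 (log2 change 2.15, SE 0.25).

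Of 79 tested chaperone genes, 15 fell (19.0%) and 10 rose (12.7%), against 15.4% and 16.5% over all tested models, and the balance turned with the setting, to 12 falls and 14 rises by RLE scaling, 12 and 19 by upper quartile scaling, and 15 and 16 by DESeq2. The falls numbered 8 without stage 3 replicate 2 and 9 without stage 2 replicate 1, and the rises 3 and 2 without stage 3 replicate 2 and without stage 2 replicate 2. The heat shock factor (g4765), the transcription factor of the heat shock response, fell to 21.4 and 19.0 CPM at stage 3, against 78.8 and 113 CPM at stage 2 (log2 change -2.25, SE 0.27). Constitutive heat shock cognate 4 (g27068) was at 1046 and 1449 CPM at stage 3 and at 1100 and 811 CPM at stage 2, and was not called. Of 219 tested actin, tubulin and motor genes, 40 fell (18.3%) and 30 rose (13.7%), against 15.4% and 16.5% over all tested models. By upper quartile scaling 36 of them fell and 37 rose. The rises numbered 19 without stage 3 replicate 2 and 18 without either stage 2 library. The actin model g27982 fell to 124 and 115 CPM at stage 3, against 2126 and 1341 CPM at stage 2 (log2 change -3.86, SE 0.28), and filamin-A (g26574), which crosslinks actin, to 9.99 and 8.55 CPM at stage 3, against 119 and 146 CPM at stage 2 (log2 change -3.83, SE 0.31). Actins are a multigene family, so the split of reads among copies is uncertain.

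Other lists were described by their counts of calls, beside 16.5% rises and 15.4% falls over all tested models. Cell adhesion and extracellular matrix genes had 17 rises (12.6%) and 11 falls (8.15%) among 135 tested members, and 26 and 13 with the block. Leaving out 1 library gave 6 to 12 rises, the fewest without stage 2 replicate 1, and 6 falls in all but the case without stage 3 replicate 1, which gave 9. Lysosomal and digestive proteases and lipases had 17 and 14 among 95, or 17.9% and 14.7%. They had 9 to 13 rises with 1 library left out, and 9 falls without stage 3 replicate 2. Cytochrome P450 and conjugating enzymes had 14 and 10 among 111, or 12.6% and 9.01%. They had 2 to 8 rises when 1 library was left out, 4 falls without stage 3 replicate 1 and 5 falls without either of the second replicates. Transposable element proteins had 3 rises among 7 tested members, which numbered 0 or 1 with any library left out. Adult protein genes had 1 rise among 29, called with 4 and 12 counts at stage 3 and 0 and 0 at stage 2, and 5 with the block. The vitellogenin-6 model g8828, a yolk precursor made by the mother, was at 4.38 and 18.4 CPM at stage 3 and at 6.45 and 10.3 CPM at stage 2 (edgeR adjusted p = 0.74).

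The most abundant transcripts of both stages included called and uncalled genes. By the mean of both libraries, the gene with the largest share of the counts at each stage was g20563, with 0.470% and 1.70% at stage 3, against 0.130% and 0.881% at stage 2. The heterogeneous nuclear ribonucleoprotein D-like model g1657 was at 4519 and 4366 CPM at stage 3, against 1333 and 1503 CPM at stage 2 (log2 change 1.65, SE 0.21, edgeR adjusted p = 4.7e-05), and stood above g20563 in replicate 1 of both stages. The uncharacterized model g3565 was among the 5 most abundant at stage 2 and fell to 487 and 277 CPM at stage 3, against 3574 and 3747 CPM at stage 2 (log2 change -3.26, SE 0.43). Polyubiquitin-C (g26922) was at 2520 and 3455 CPM at stage 3 and at 3606 and 2149 CPM at stage 2, with no call.

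The rising and falling models differed in structure, given here as a description. The median model length was 1684 bp for the rises and 2104 bp for the falls, against 1810 bp over all tested models. Models that span a single block without introns made up 7.53% of the rises and 4.44% of the falls, against 5.44% of all tested models. A description other than uncharacterized was given for 66.9% of the rises and 79.9% of the falls. No NCBI gene was paired with 12.6% of the rises and 4.71% of the falls, against 9.78% of all tested models. Calls on shorter models with no counterpart in a second annotation rest on the gene prediction alone.

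Some called models were neighbours. Rises formed 42 runs of at least 3 neighbouring models on a scaffold, and falls formed 28. With 16.5% rises and 15.4% falls over all tested models, some runs arise without any link between neighbours. Their expected number was not computed, so the counts are not read as clustering. Neighbouring models can be parts of 1 gene: the 3 models of a falling run on scaffold 20, g7192, g7193 and g7194, are all paired with 1 NCBI gene for phosphoglucomutase. The longest rising run, 7 models on scaffold 293 (bases 437828 to 644156), held the transcription factor COE1 and a Mediator subunit. A run of 6 rises on scaffold 626 (bases 5596 to 234887) held g5177, similar to inner centromere protein A, next to 3 kinesin heavy chain models, g5178, g5179 and g5180. The model g5177 was at 695 and 820 CPM at stage 3, against 2.62 and 1.70 CPM at stage 2 (log2 change 8.42, SE 0.65). The kinesin model g5178 was at 773 and 1266 CPM at stage 3, against 3.03 and 3.52 CPM at stage 2 (log2 change 8.28, SE 0.39, edgeR adjusted p = 7.9e-08), g5179 at 725 and 1096 CPM at stage 3, against 2.92 and 1.57 CPM at stage 2, and g5180 at 200 and 551 CPM at stage 3, against 1.41 and 1.17 CPM at stage 2. A run of 6 rises on scaffold 357 held 3 speckle-type POZ protein A-like models. How these neighbouring models came to rise together was not tested, and the split of reads among similar copies is uncertain.

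In embryos of the same females after fuchi pRNAi, stage 3 differed from stage 2 in 1751 rises (12.1%) and 1796 falls (12.4%). Of these, 1585 rises and 1581 falls were also called in untreated embryos. They were 90.5% of the pRNAi rises and 66.3% of the untreated rises, and 88.0% of the pRNAi falls and 70.9% of the untreated falls. No model was called in opposite directions. The difference between the 2 stage changes was tested directly for each model. At an adjusted p below 0.01 it was called for 0 models by edgeR's quasi-likelihood test (smallest adjusted p 0.0114; 611 models at an unadjusted p below 0.05), for 9 (0.0621%) with the female as a block, for 22 by edgeR's likelihood ratio test and for 21 by DESeq2.

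With the block, 8 of the 9 models had a smaller stage change under pRNAi, or 0.0552% of those tested, and 1 had a larger one (0.0069%). The uncharacterized model g2114 had 2 and 5 counts in pRNAi embryos and 622 and 943 counts in untreated embryos at stage 3. At stage 2 it had 3 and 12 counts in pRNAi embryos and 10 and 4 counts in untreated embryos. The gamma-butyrobetaine dioxygenase model g26914, of an enzyme type that makes carnitine, had 3 and 1 counts in pRNAi embryos and 183 and 205 in untreated embryos at stage 3. The fibroblast growth factor 8-like model g5611 was the one with a larger stage change under pRNAi, at 887 and 410 counts in pRNAi embryos and 292 and 182 in untreated embryos at stage 3, and at 45 and 42 counts in pRNAi embryos and 205 and 177 in untreated embryos at stage 2.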

How the data were processed

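The authors deposited whole-number counts per gene model, made with HTSeq 0.6.1p1 on AUGUSTUS models (aug3.1) of the Ptep_1.0 assembly, and a table of RPKM values that the authors computed from them. RPKM served here only in an alternative test. The study's methods name BLAT and htseq-count at its default settings for a related dataset, and refer to earlier work for the processing of these reads. Whether the strand setting was the same is not given in the sources used here, so overlapping models (506 of those tested) are uncertain. Descriptions and NCBI genes were taken from the deposited annotation.

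Counts were normalized by TMM and fitted with edgeR 4.0.16 (R 4.3.3) in a quasi-likelihood model of 6 groups over all 12 libraries, whose spread is shared, without a block. Models with at least 1 CPM in 1 library were tested, p-values were adjusted by Benjamini and Hochberg over all of them, and a call needed an adjusted p below 0.01 and 2-fold. CPM values use TMM-scaled library sizes. Each SE is the size of the fitted log2 change divided by the square root of the F statistic of its test. It thus rests on the spread shared over all 12 libraries, not on the 2 libraries of a stage alone. Alternatives used DESeq2 1.42.0, limma 3.58.1 and the settings given in the closing section. Scripts were tested on simulated counts. Replicates carry the same number when they come from the same female, and the deviations of the females correlated between the stages (r = 0.246 across genes), so a fit with the female as a block is printed where it changes the call of a named gene or moves a count by over 1.5 times. Replicates of a stage differed by far more than sampling noise (mean chi-square per gene 31.6 at stage 3 and 34.7 at stage 2).

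Named genes are the rises and falls with the smallest p, those with 0 or few counts at one stage, all patterning and GATA members, up to 3 called members in each direction and the most abundant uncalled member of each list, the 5 most abundant genes of a stage, and others marked as named after their values were seen. The lists match words in descriptions. The members and lists were chosen with earlier results of these data known, and several patterning genes were studied in the paper on these libraries.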

Additional observations from a re-analysis of the deposited data

How the results depend on the processing

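Under every alternative, 0 of the 4620 calls turned into the opposite call. This is no independent check of direction, because each alternative refits the same libraries or part of them. Every call already had both stage 3 libraries on the same side of both stage 2 libraries. Of 3960 values of named genes under an alternative, 3729 kept their side of the threshold, 198 lost it, 33 gained it and 0 turned round. Counts moved more. The block gave 2852 rises and 2629 falls, the 4 untreated libraries alone 1862 and 1902, the likelihood ratio test 2983 and 2544, DESeq2 2572 and 2233, and no filter 2735 and 2745. A test against a change of 2-fold gave 1228 rises and 1132 falls. With 1 library left out the rises numbered 1562 to 1831, the falls 1309 to 1779, the list members that rose 311 to 362 and those that fell 129 to 186, and the named genes called 173 to 182. The lone library of a stage is then assumed to vary like the other groups. With limma on log2(RPKM + 1) for all genes above 0, there were 1474 rises, and 281 list members rose. Scaling moved the balance of calls, with a median log2 change over all models of 0.10 by TMM, 0.17 by RLE, 0.28 by upper quartile and -0.10 by library totals. Rises were 59.6% of the calls by upper quartile and 42.7% by library totals. The difference to pRNAi embryos had 9 calls with the replicate block, 22 by the likelihood ratio test, 21 by DESeq2 and 33 without a filter. With the replicate block 2384 of the 2390 rises and 2225 of the 2230 falls were still called. Promoter motifs were not run, since promoter sequences were not used here. The depth limits genes under about 1 CPM, where 3 counts were 0.303 to 0.484 CPM.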

Other observations

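Some groups of models with the same description mostly moved together, beside 16.5% rises and 15.4% falls over all tested models. They were chosen after their values were seen, and reads may be split among similar copies. Of 10 tested kinesin heavy chain models, microtubule motors, 6 rose and 2 fell. The model g11117 was at 204 and 478 CPM at stage 3, against 0.908 and 0.522 CPM at stage 2, and g11794 had 135 and 164 counts at stage 3, against 0 and 0 at stage 2. The falling models were g16353, at 8.62 and 9.36 CPM at stage 3, against 69.2 and 41.9 CPM at stage 2, and g638, at 36.4 and 44.7 CPM at stage 3, against 168 and 109 CPM at stage 2. All 6 tested models of speckle-type POZ protein A, an adaptor of ubiquitin ligases, rose, by 2.67 on the log2 scale or more, but g19310 and g21829 lost the call without stage 3 replicate 1, and g21829 also without either stage 2 library. Its model g1962 had 326 and 379 counts at stage 3, against 1 and 1 counts at stage 2, a ratio of 459 (exact 95% interval 127 to 3796). Models with related descriptions did not share this direction. Of 19 tested models of speckle-type POZ protein B, 2 rose and 1 fell. Of 17 tested models described as speckle-type POZ protein, 0 rose and 2 fell. Of 5 tested models of putative sodium-coupled neutral amino acid transporter 7, 4 fell, with a median log2 change of -5.98, and some of these models are paired with the same NCBI gene. The call of g21670 among them was lost without either stage 3 library and without stage 2 replicate 2.

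A pair of rising genes had counts at stage 3 in untreated embryos alone. The sialin-like model g27427 had 0 and 0 counts in pRNAi embryos and 65 and 87 in untreated embryos at stage 3, and the glutathione S-transferase model g17448 had 0 and 0 counts in pRNAi embryos and 48 and 17 in untreated embryos. All 4 stage 2 libraries of both treatments had 0 counts for both genes. The difference of their stage changes has no usable fit, because both stage 2 groups are at 0.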
